A study of Mus musculus with 18 samples.

Results

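The genes described here encode the subunits of voltage-gated sodium and calcium channels in the developing mouse cerebellum. They were taken as all genes whose symbol begins with Cacna, Cacnb or Cacng, or consists of Scn, a number and a or b, and for which the array annotation has a transcript cluster with that single symbol. This gave 36 members among 22180 genes. The members are 8 pore-forming alpha subunits and 3 beta subunits of sodium channels, and 10 pore-forming alpha1, 4 alpha2delta, 3 beta and 8 gamma subunits of calcium channels. The rule used symbols only and no measured value, but the set was chosen with earlier results of these data known.

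Voltage-gated sodium channels carry the rising phase of the action potential, and voltage-gated calcium channels turn depolarisation into calcium entry that drives transmitter release, firing patterns and gene expression. Each pore-forming protein holds the voltage sensor and the pore, while alpha2delta and beta subunits of calcium channels control surface expression and gating. Most gamma subunits in neurons act as TARPs, auxiliary proteins that traffic AMPA receptors, rather than as parts of calcium channels. In the cerebellum several of these genes are known from ataxic mice, among them Cacna1a (tottering), Cacna2d2 (ducky), Cacnb4 (lethargic) and Cacng2 (stargazer).

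The study asked what the histone H3K79 methyltransferase DOT1L does in cerebellar granule cells. RNA was measured on 18 Affymetrix Mouse Gene 2.0 ST arrays, in cerebella and in cultures of granule neuron progenitors (CGNP) and granule neurons (CGN). The cerebella came from P3 mice of the BL6/J background, which the study's methods write as C57BL6/J. The 3 Dot1l-cKO mice carry Dot1l f/f and Atoh1 cre/+, where Cre is driven by Atoh1, a gene of granule cell progenitors, so that the other cells of the cerebellum keep Dot1l unless they derive from Atoh1-expressing cells. The 3 controls have Dot1l f/f and Atoh1 +/+ by their titles, but the description of control 3 gives Dot1l f/+. The cultures came from wild-type NMRI mice and received the DOT1L inhibitor SGC0946 or its solvent DMSO. CGNP were P7 cells kept with SHH, at 1 day in vitro and 4 h of treatment, in 3 cultures per treatment. These cultures came from mouse 29, mouse 30 and both mice pooled, so that 2 mice supplied all 6 CGNP arrays. CGN were kept with FBS and treated for 44 h, in 2 cultures per treatment. The DMSO arrays of CGN are labelled with 2 and 4 days in vitro and the SGC0946 arrays with 5 and 7, with an age of P7 for all but SGC0946 culture 2, which has P9. Days in vitro thus go with treatment in CGN and cannot be told apart from it, although the study's methods give 1 schedule for all CGN. Age differs from the DMSO arrays only in SGC0946 culture 2. The labels give the inhibitor dose as 5 mM, and the methods give the same figure in micromolar. Another 2 CGN arrays entered no comparison, because their titles give one treatment and their descriptions the other.

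All values are log2 signals, so that a difference of 1 is a 2-fold difference. Each gene is represented by its brightest cluster, and levels of different genes are not compared because probes differ in brightness. Array medians over all genes ranged from 5.68 to 5.81 in cerebella, from 5.05 to 5.10 in CGNP and from 4.94 to 5.03 in the CGN arrays compared. The 3 experiments appear to have been normalized apart, so differences between them are described without a test. The Dot1l cluster was at 9.05, 9.13 and 9.05 in controls and at 9.24, 9.43 and 9.01 in Dot1l-cKO, which gives no check of the deletion because the cluster reads the whole transcript and not the floxed exon alone.

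Signals of olfactory and vomeronasal receptor genes (1373 genes of sensory cells of the nose) served as a bound for dim signals, taken at their 95th percentile within each experiment, which was 5.21 in cerebella, 5.08 in CGNP and 4.93 in CGN. Of the 36 channel genes, 19 lay above this bound in all 6 groups, with at least 1 member from every subunit class. By group, 19 (CGNP) to 27 (Dot1l-cKO) of the 36 lay above it, where 49.5% to 55.6% of all genes did. The share of all genes above or below the bound in every group was not counted. In no culture group but in cerebella, Scn1a and Cacna1h lay above it in both genotypes, and Scn9a and Cacna1i in Dot1l-cKO alone. At or below it in every group were 8 genes. They were Scn10a and Scn11a of sensory ganglia, Cacna1f and Cacna2d4 of the retina, Cacna1s and Cacng1 of skeletal muscle, and also Scn4b and Cacng6. The remaining 5 (Scn3a, Scn7a, Cacna1g, Cacna2d2 and Cacnb2) lay above it in some of the groups. The plot of each array's difference from the gene's mean within its experiment shows all 36.

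**Figure D1:**
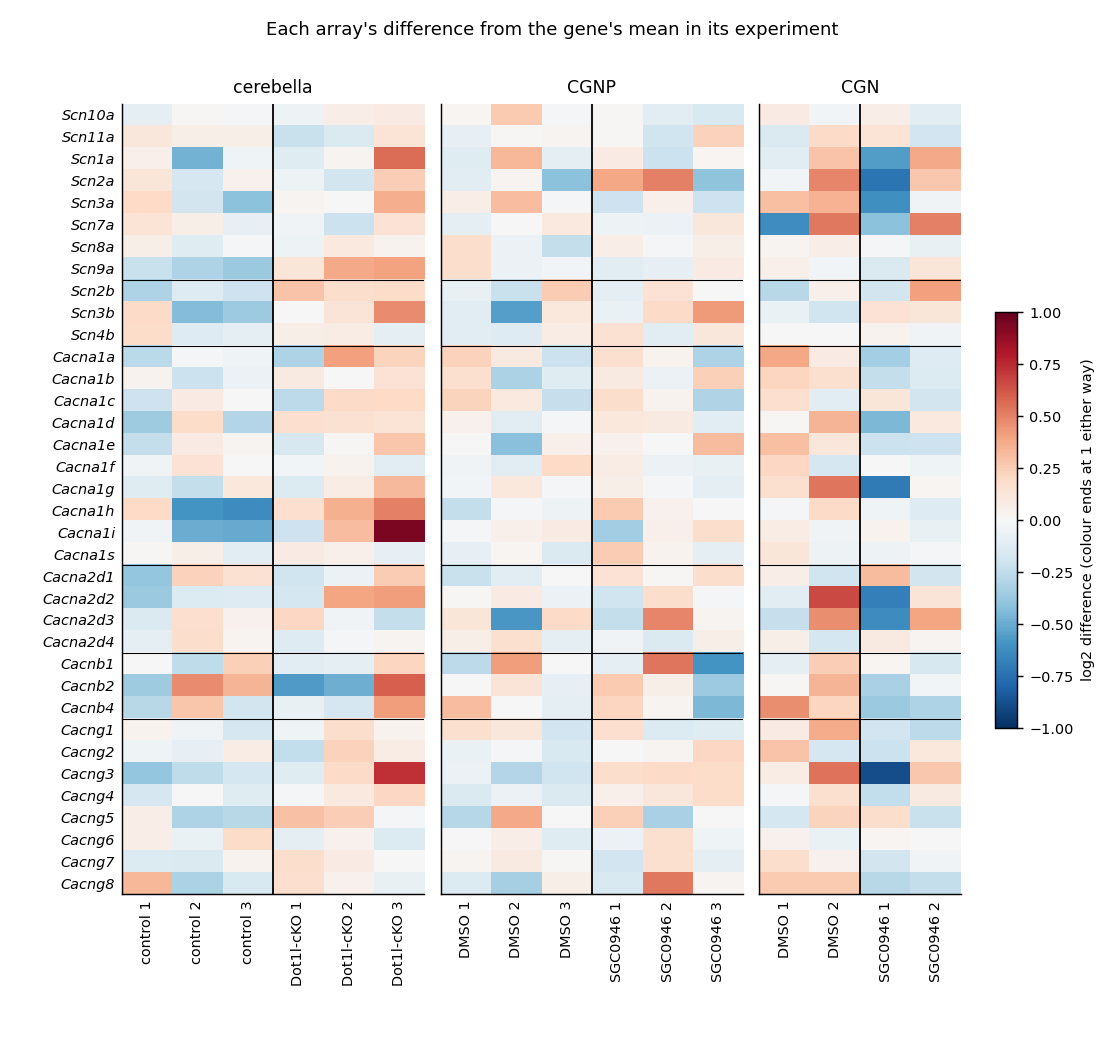
Heat map of the log2 difference of each array from the gene's mean over the arrays of its experiment, for 36 channel genes (rows, by subunit class) and 16 arrays (columns, by group and replicate), with colours ending at a difference of 1 either way. Dot1l-cKO 3 is the reddest column of the cerebella, with Cacna1i and Cacng3 at its extremes, and CGN with SGC0946 1 is the bluest of the CGN arrays.

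The first comparison asks how the channel genes differ between progenitors and granule neurons in culture with DMSO alone. A difference was called where it was at least 2-fold and the arrays of the groups did not overlap. Of the 36 members 8 were higher in CGN by this rule, against 2.75% of all genes, and 1 was lower, against 11.2% of all genes. The median difference of the members was 0.12 on the log2 scale, and that of all genes was -0.23. The cultures also differed in medium and in time in vitro, and no test was run.

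The sequences upstream of 3 members that carry this contrast are shown. They are Cacna2d2 and Cacna1e with the largest differences in signal upward and Cacng7 as the single member called lower. Each line is the 250 bases before the annotated start in RefSeq (build GRCm38.p6), 5′ to 3′ on the strand of the gene, with capitals marking matches to the E-box CAGCTG or to the GC box GGGCGG on either strand.
Cacna2d2, chr9:107399630-107399879, plus strand: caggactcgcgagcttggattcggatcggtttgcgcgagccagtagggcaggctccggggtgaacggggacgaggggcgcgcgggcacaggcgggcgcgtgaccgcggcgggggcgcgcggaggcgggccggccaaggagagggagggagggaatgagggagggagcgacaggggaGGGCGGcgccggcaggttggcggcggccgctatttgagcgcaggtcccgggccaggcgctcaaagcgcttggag
Cacna1e, chr1:154725921-154726170, minus strand: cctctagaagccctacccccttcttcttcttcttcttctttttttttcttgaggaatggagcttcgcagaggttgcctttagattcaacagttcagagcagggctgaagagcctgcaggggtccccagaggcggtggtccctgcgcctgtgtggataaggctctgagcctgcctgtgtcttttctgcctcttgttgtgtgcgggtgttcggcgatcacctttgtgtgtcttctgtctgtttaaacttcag
Cacng7, chr7:3332575-3332824, plus strand: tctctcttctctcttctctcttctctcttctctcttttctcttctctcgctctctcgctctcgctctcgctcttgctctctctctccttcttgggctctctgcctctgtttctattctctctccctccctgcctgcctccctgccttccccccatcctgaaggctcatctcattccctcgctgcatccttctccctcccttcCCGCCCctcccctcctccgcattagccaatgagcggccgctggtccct

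Cacna2d2 has a window of 74.4% G and C with 34 CG dinucleotides, where the median of all 32841 windows of this length is 6. The windows of Cacna1e and Cacng7 hold 6 and 9 CG dinucleotides. CAGCTG, which reads the same on both strands and can share no more than an end base with the other motif, is found in 13% of all windows and in 11 of the 38 windows of members, but in none of the 3 shown. GGGCGG is found in 32.7% of all windows and in 14 of the 38, with 1 match in Cacna2d2 and 1 in Cacng7. A match of letters describes the sequence and is no evidence of a bound factor.

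Among pore-forming genes, Cacna1e, Scn2a and Cacna1g were higher in CGN. Cacna1e, the R-type calcium channel, was at 7.62, 7.20 and 7.67 in the 3 CGNP arrays and at 9.44 and 9.25 in the 2 CGN arrays, a difference of 1.85 or 3.59-fold. Scn2a, the sodium channel of axon initial segments in immature neurons, was at 6.30, 6.44 and 6.00 in CGNP and at 7.35 and 7.86 in CGN, a difference of 1.36. Cacna1g, a low-voltage-activated T-type channel, was at 4.10, 4.24 and 4.12 in CGNP, all below the dim bound, and at 5.18 and 5.56 in CGN, a difference of 1.22 in signal. For all 3 genes the lowest CGN array stood clear of the highest CGNP array. Scn7a, which encodes a sodium sensor of glia and some neurons, differed by 1.04, from 3.90, 4.00 and 4.09 to 4.47 and 5.61. Its CGNP arrays were below the dim bound and its CGN arrays lay far apart, and without CGN with DMSO 2 its difference was 0.47.

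Auxiliary subunits showed both directions. Cacna2d2, the alpha2delta subunit lost in ducky mice, was at 4.45, 4.52 and 4.38 in CGNP and at 6.23 and 6.99 in CGN, a difference of 2.16 in signal. Its CGNP arrays lay below the dim bound, so no fold is given. Cacna2d3, another alpha2delta subunit, was at 6.25, 5.55 and 6.31 in CGNP and at 6.70 and 7.39 in CGN, a difference of 1.01 just past the 2-fold bound. The TARP gene Cacng3 differed by 1.13, from 5.46, 5.23 and 5.33 to 6.23 and 6.70. All 3 genes had no CGN array as low as the highest CGNP array. Cacng5, also of the TARP group, was at 6.13, 6.80 and 6.42 in CGNP and at 7.28 and 7.69 in CGN, a difference of 1.04. Cacng7, a TARP of cerebellar neurons, went the other way, from 10.91, 10.97 and 10.89 in CGNP to 9.55 and 9.42 in CGN, a difference of -1.44 or 2.71-fold. Without CGN with DMSO 2 only 5 members were called higher: Scn2a, Cacna1e, Cacna1g, Cacna2d2 and, in addition, Cacnb4.

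**Figure D2:**
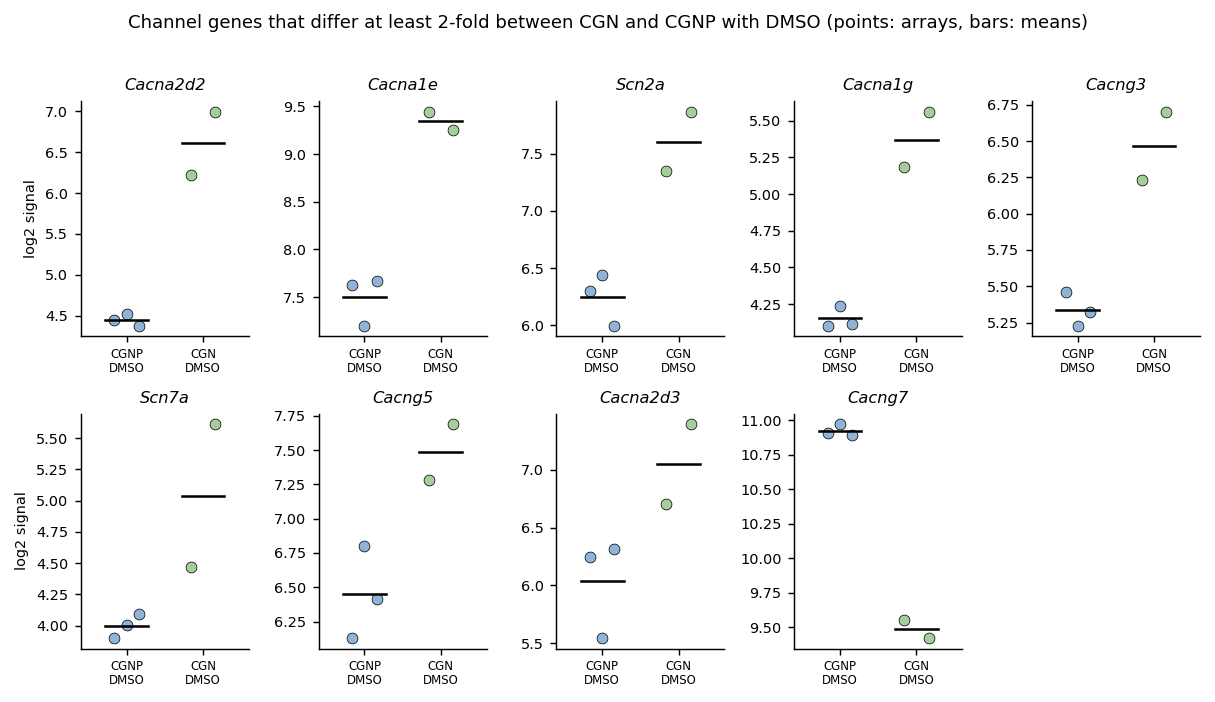
Log2 signal (vertical axes, scaled per gene) of the 9 channel genes called between 3 CGNP and 2 CGN arrays with DMSO, with points for arrays and bars for means. The CGN points lie above all CGNP points in 8 genes, with 1 CGN array of Scn7a at 4.47 close to them, and below them in Cacng7.

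Joint quantile normalization of the culture arrays, which gives all arrays 1 distribution, moved the median difference of all genes from -0.23 to -0.01 and with it the members. With it 13 members were called higher, against 5.03% of all genes, and none lower, against 4.30%. The 5 added were Scn8a, the sodium channel of mature nodes and initial segments (1.25 against 0.66 as deposited), Cacna1a, the P/Q-type channel (1.28 against 0.75), Cacna1b, the N-type channel (1.04 against 0.47), Cacna1d, an L-type channel (1.15 against 0.97), and Cacnb4 (1.35 against 0.97). Cacng7 remained lower at -0.84, short of 2-fold. Below 2-fold in both scalings was Cacng2, which encodes stargazin (-0.70 as deposited and -0.12 jointly), while Cacng4, another TARP gene, turned from -0.44 to 0.10.

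Genes that work with these channels, listed from general knowledge (37 measured, such as ankyrins, FGF-like sodium channel partners, active zone scaffolds and ryanodine receptors), had 9 members higher in CGN and 1 lower. The 4 largest were Ryr3, an intracellular calcium release channel (2.61), Fgf14, a sodium channel partner linked to ataxia (2.16), Cntnap2 (1.97) and the active zone scaffold Rims1 (1.95). Of 10 progenitor and cell cycle genes 6 were lower in CGN, Ccnd2 by the most (-2.86). Of 12 granule neuron genes 1 was called higher (Gabra6 by 1.12) and 1 lower (Slc17a7 at -1.24), with 6 higher and 6 lower means. Of 11 vascular and fibroblast genes 3 were called higher in CGN (Dcn by 3.77, Lum by 3.76, Col1a2 by 2.62) and none lower, with 8 higher and 3 lower means. Of 7 Purkinje cell genes 2 were called higher (Calb1 by 3.05, Car8 by 2.23) and none lower, with 5 higher and 2 lower means. In RNA from whole cultures and tissue, fewer cells of a type and less RNA per cell cannot be told apart, and the part of such cells in the channel differences was not tested.

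Control cerebella were set beside both DMSO cultures in the same way. In the deposited values 13 members were at least 2-fold higher in cerebella than in each culture without overlap, against 10.5% of all genes, and 2 were lower, against 0.595%. After joint normalization 6 stayed higher, against 4.64% of all genes: Scn1a, Scn3a, Cacna1g, Cacna2d2, Cacng3 and Cacng4. Scn1a, the sodium channel of fast-spiking interneurons and Purkinje cells, was at 7.48, 6.96 and 7.39 in control cerebella and between 4.12 and 4.72 in the DMSO cultures. The 2 lower members were the same in both scalings (joint background 2.63%): Cacna1c, an L-type channel, and Cacna2d1, the alpha2delta subunit bound by gabapentin. Cacna1c was at 7.69, 7.98 and 7.90 in cerebella and from 8.60 to 9.37 in cultures. Cacna2d1 was at 8.77, 9.39 and 9.32 in cerebella and from 10.04 to 10.37 in cultures, so that neither gene overlapped.

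The second comparison asks how loss of Dot1l in the granule lineage affects the channel genes in P3 cerebella. None of the 36 members passed limma's test with p-values adjusted over all genes (Benjamini-Hochberg, threshold 0.05), where 0.0225% of all genes (5 genes) did. At the study's cut-off of an unadjusted p of at most 0.05, 8 members were higher in Dot1l-cKO and none lower, where 4.09% of all genes were higher and 4.60% lower. The 8 were spread over 5 of the 6 subunit classes: Scn9a, Scn2b, Scn3b, the T-type genes Cacna1h and Cacna1i, Cacna2d2, Cacng3 and Cacng5. The mean was higher in Dot1l-cKO for 28 of the 36 members and for 47.9% of all genes, and the members' median difference was 0.10, that of all genes -0.01. Gene medians were higher in every Dot1l-cKO array (5.78 to 5.81) than in every control (5.68 to 5.74), and with each array centred on its median the members' median difference was 0.0194. All 8 had adjusted p-values of 0.393 to 0.555, so these are values and not calls.

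Among sodium channel genes, Scn9a, best known from pain-sensing neurons, was at 5.24, 5.16 and 5.09 in controls and at 5.59, 5.85 and 5.87 in Dot1l-cKO. The lowest Dot1l-cKO mouse stood above the highest control, with a difference of 0.60 ± 0.17 (SE of the fit, n = 3 per group, unadjusted p = 0.00475 in limma, adjusted p = 0.393). Control 1 of Scn9a lay just above the dim bound and the other controls below it. A second cluster annotated to Scn9a and Gm13629 together differed by 0.04, with means of 4.29 in controls and 4.33 in Dot1l-cKO. Both means lay below the dim bound, so this cluster can say little about a change. Scn2b, a beta subunit bound covalently to the pore protein, was at 6.63, 6.80 and 6.73 in controls and at 7.22, 7.11 and 7.12 in Dot1l-cKO, again without overlap (0.43 ± 0.16, unadjusted p = 0.0214 in limma). Scn3b, which binds without such a bond, overlapped: control 1 at 9.28 stood above Dot1l-cKO 1 at 9.10 and 2 at 9.22, while the other controls were at 8.65 and 8.73 and Dot1l-cKO 3 at 9.56 (0.40 ± 0.18). The neuronal pore genes Scn2a (0.01 ± 0.14) and Scn8a (0.05 ± 0.11) had the smallest differences among alpha subunits, and their 95% intervals reached from -0.30 to 0.32 and from -0.20 to 0.31.

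The T-type calcium channels open at low voltage and support burst firing. Cacna1h was at 6.59, 5.79 and 5.76 in controls and at 6.56, 6.75 and 6.89 in Dot1l-cKO, a difference of 0.68 ± 0.24 (unadjusted p = 0.0145 in limma). Cacna1i was at 5.12, 4.66 and 4.66 in controls and at 4.95, 5.47 and 6.10 in Dot1l-cKO, a difference of 0.69 ± 0.26 (unadjusted p = 0.0218 in limma). Control 1 was the high control in both genes and overlapped with Dot1l-cKO 1. All controls and Dot1l-cKO 1 of Cacna1i lay below the dim bound. The third T-type gene, Cacna1g, was at 7.76, 7.64 and 7.99 in controls and at 7.74, 7.95 and 8.20 in Dot1l-cKO (0.17 ± 0.16, 95% interval -0.19 to 0.53). The high-voltage-activated genes Cacna1a, Cacna1b, Cacna1c, Cacna1d and Cacna1e differed by 0.08 to 0.31, and none reached the unadjusted cut-off.

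Among auxiliary subunits of calcium channels, Cacna2d2 was at 8.67, 8.91 and 8.92 in controls and at 8.87, 9.44 and 9.46 in Dot1l-cKO, with Dot1l-cKO 1 inside the control range (0.42 ± 0.16, unadjusted p = 0.0254 in limma). Cacna2d1 had a difference of 0.00 ± 0.18 and the beta subunits differed by -0.30 to 0.12. Of the TARP genes, Cacng3 was at 8.57, 8.70 and 8.78 in controls and at 8.83, 9.15 and 9.68 in Dot1l-cKO, without overlap (0.54 ± 0.19, unadjusted p = 0.0137 in limma). Cacng5 was at 9.28, 8.91 and 8.94 in controls and at 9.51, 9.47 and 9.20 in Dot1l-cKO, where Dot1l-cKO 3 lay below control 1 (0.35 ± 0.14). Cacng2, which encodes stargazin, differed by 0.04 ± 0.12. Without overlap were thus Scn9a, Scn2b and Cacng3, all higher in Dot1l-cKO. That is 3 of 36 members higher, where 6.28% of all genes were, and none lower, where 7.75% were.

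**Figure D3:**
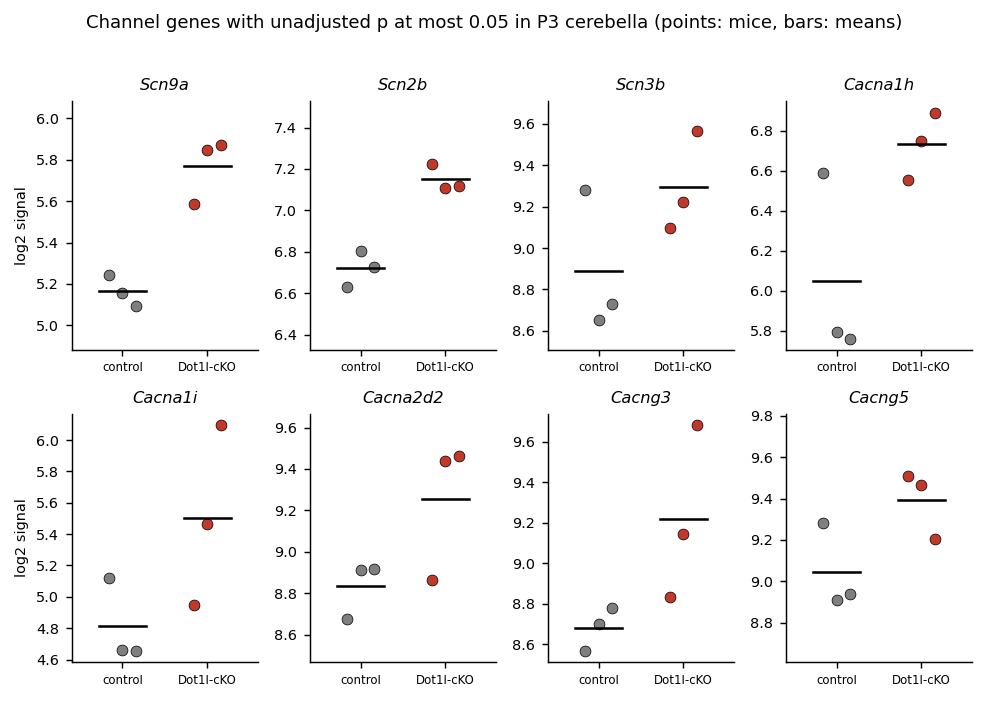
Log2 signal (vertical axes, scaled per gene) in 3 control and 3 Dot1l-cKO cerebella for the 8 channel genes at an unadjusted p of at most 0.05, with points for mice and bars for means. Scn9a, Scn2b and Cacng3 separate the groups, while control 1 overlaps Dot1l-cKO in Scn3b, Cacna1h, Cacna1i and Cacng5, and Dot1l-cKO 1 lies within the controls in Cacna2d2.

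The number of genes at the cut-off depended on single mice. It was 4 without Dot1l-cKO 3 (Scn9a, Scn2b, Cacna1h, Cacng5) and 4 without control 3, the mouse with the conflicting genotype label (Scn9a, Scn2b, Cacna2d2, Cacng3). It was 5 without Dot1l-cKO 2 or control 2, and Scn9a reached the cut-off in every one of these. Each array centred on its own median over genes gave 4 (Scn9a, Cacna1h, Cacna1i, Cacng3), with Scn11a then lower.

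Marker lists of several cell types were set beside these genes. Of 9 genes of interneurons and unipolar brush cells 6 reached the unadjusted cut-off with higher signals in Dot1l-cKO, Pax2 by the most (1.14 ± 0.17), and the list's mean per mouse was 6.84 to 7.20 in controls and 7.48 to 7.71 in Dot1l-cKO. All 9 lay above the dim bound in both groups. Of 10 progenitor genes 7 were lower, Sfrp1 (-1.05 ± 0.17) and Atoh1 (-0.79 ± 0.16) by the most, with list means of 9.72 to 9.84 in controls and 9.24 to 9.47 in Dot1l-cKO. Of 12 granule neuron genes 2 were lower (Grin2c -0.37 ± 0.14, Zic2 -0.24 ± 0.10) and none higher, with 7 higher and 5 lower means. The list means of these granule neuron genes overlapped, at 8.13 to 8.33 in controls and 8.16 to 8.27 in Dot1l-cKO. None of 7 Purkinje cell genes reached the cut-off, and their list means overlapped, at 10.06 to 10.15 in controls and 9.98 to 10.20 in Dot1l-cKO. Of 10 microglia genes 4 were higher, with list means of 6.45 to 6.63 and 6.70 to 7.01. Of 9 astroglia genes 1 was higher, with list means of 9.72 to 9.96 in controls and 9.98 to 10.05 in Dot1l-cKO. Of 9 oligodendrocyte genes 2 were higher (8 higher means, list means of 7.31 to 7.45 and 7.42 to 7.77), as were 2 of 11 vascular genes (10 higher means, list means of 8.17 to 8.47 and 8.23 to 8.57). Of 20 muscle genes 8 were higher and 2 of them, Actc1 (3.82 ± 0.20) and Mymk (1.86 ± 0.22), passed the adjusted test, with list means of 4.45 to 4.50 and 4.96 to 5.09. Cacna1s, named above with skeletal muscle, was at 4.20 to 4.37 in controls and 4.23 to 4.39 in Dot1l-cKO. Cacng1, named with it, was at 4.09 to 4.30 and 4.22 to 4.44. Both genes lay below the dim bound in both genotypes. The other channel genes were not sorted by their use in muscle. The part of any of these lists, muscle included, in the channel differences was not tested.

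Among the 37 genes that work with the channels, 6 reached the unadjusted cut-off with higher signals in Dot1l-cKO and none with lower, with a median difference of 0.11. The largest were Rimbp2, which tethers calcium channels at active zones (0.77 ± 0.29), Stac2, which slows channel inactivation (0.70 ± 0.19), Rem2, a GTPase that inhibits calcium channels (0.46 ± 0.16), and Nfasc, a scaffold of initial segments (0.40 ± 0.14). The other two were Stac3 (0.37 ± 0.16) and Ryr1 (0.35 ± 0.15), both of excitation-contraction coupling in skeletal muscle. Ryr1 is also on the list of muscle genes. Among 8 AMPA receptor genes and their other auxiliary proteins, to which the TARPs bind, Shisa9 (0.33 ± 0.14) and Cnih2 (0.20 ± 0.08) were higher and Gria4 (-0.23 ± 0.10) lower at that cut-off.

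The third comparison asks what 44 h of SGC0946 did in CGN. None of the 36 members passed the adjusted test, which 0.153% of all genes (34 genes) passed. At an unadjusted p of at most 0.05, 7 members were lower with SGC0946 and none higher, where 4.08% of all genes were lower and 3.39% higher. They were Scn3a, the high-voltage-activated channel genes Cacna1a, Cacna1b and Cacna1e, the T-type gene Cacna1g, the beta subunit gene Cacnb4, and Cacng1. All 10 alpha1 genes had a lower mean with SGC0946, with a median difference of -0.26. Among them Cacna1f, Cacna1h, Cacna1i and Cacna1s lay at or below the dim bound in both CGN groups, with differences of -0.04, -0.17, -0.04 and -0.07. Over the 36 members the mean was lower for 29 and higher for 7, where 48.7% of all genes had a higher mean. The median difference was -0.15 over the members and -0.01 over all genes. The members' median per array was 5.92 and 6.09 with DMSO, and 5.42 and 6.15 in cultures 1 and 2 with SGC0946.

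Cacna1g was at 5.18 and 5.56 with DMSO and at 4.32 and 5.04 with SGC0946 (-0.69 ± 0.21, n = 2 per group, unadjusted p = 0.00502 in limma, adjusted p = 0.331). Culture 1 with SGC0946 was the low one, close to the 4.04 to 4.24 of the gene in CGNP. Without culture 2 with SGC0946 the difference was -1.05 with an adjusted p of 0.0197 in limma, which leaves 1 treated array that is assumed to vary like the other groups, and without culture 1 it was -0.33; over the alternatives run the adjusted p ranged from 0.0197 to 0.943. Scn3a, a sodium channel of embryonic and early postnatal neurons, was at 5.47 and 5.53 with DMSO and at 4.56 and 5.14 with SGC0946 (-0.65 ± 0.22, unadjusted p = 0.0109 in limma), with the same culture lowest. With SGC0946 the mean of both Cacna1g and Scn3a lay below the dim bound.

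The presynaptic channels Cacna1a and Cacna1b differed by less. Cacna1a was at 8.74 and 8.43 with DMSO and at 8.02 and 8.23 with SGC0946 (-0.46 ± 0.21, unadjusted p = 0.0439 in limma). Cacna1b was at 9.22 and 9.16 with DMSO and at 8.76 and 8.86 with SGC0946 (-0.38 ± 0.17, unadjusted p = 0.0436 in limma). In both genes every SGC0946 array lay below every DMSO array. Cacna1e was at 9.44 and 9.25 with DMSO and at 8.92 and 8.93 with SGC0946 (-0.42 ± 0.19, unadjusted p = 0.046 in limma), and left the cut-off when any 1 CGN array was left out. Cacnb4, whose protein couples to the pores, was at 7.37 and 7.13 with DMSO and at 6.54 and 6.60 with SGC0946 (-0.68 ± 0.25, unadjusted p = 0.0158 in limma). Its second, dimmer cluster differed by -0.42. Cacng1 was at 4.27 and 4.56 with DMSO and at 4.00 and 3.92 with SGC0946 (-0.45 ± 0.17), all at or below the dim bound.

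**Figure D4:**
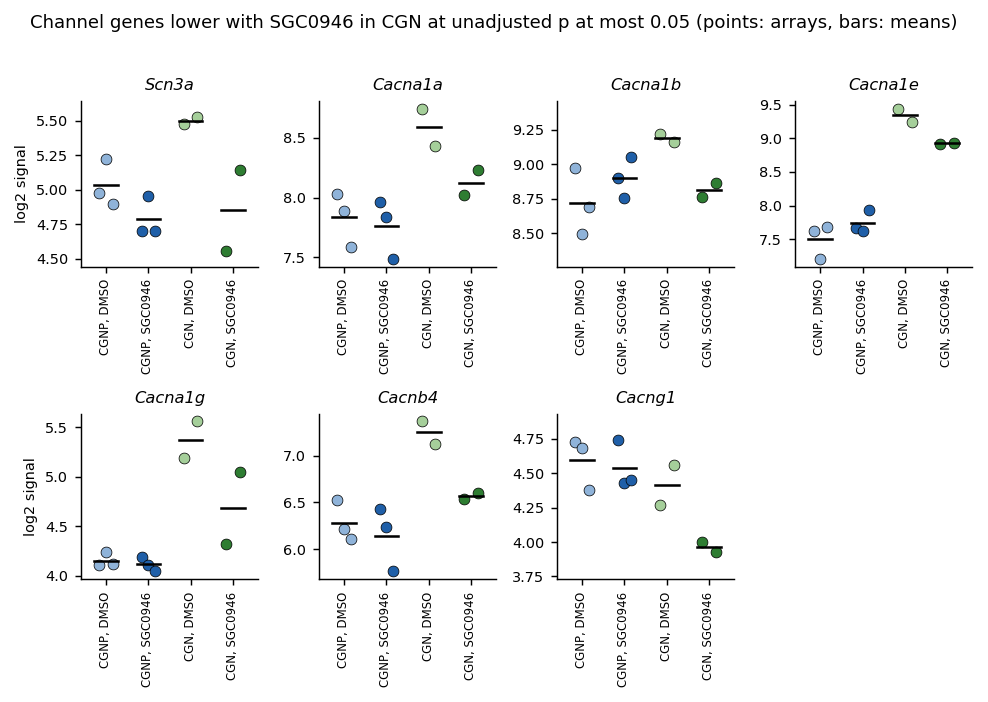
Log2 signal (vertical axes, scaled per gene) of the 7 channel genes lower with SGC0946 in CGN at an unadjusted p of at most 0.05, in 3 CGNP and 2 CGN cultures per treatment, with points for arrays and bars for means. In CGN the SGC0946 points lie below the DMSO points in every gene, while in CGNP the treatments overlap in all 7.

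The groups did not overlap in 12 members that were lower and in 1 that was higher (Scn3b), where 17.1% and 17.0% of all genes were apart in these directions. Other members had wide intervals: Cacng3 was at 6.23 and 6.70 with DMSO and at 5.27 and 6.43 with SGC0946 (-0.62 ± 0.31, 95% interval -1.28 to 0.05), and Cacna2d2 at 6.23 and 6.99 against 5.65 and 6.46 (-0.55 ± 0.29, -1.17 to 0.06). Scn8a was at 9.69 and 9.73 against 9.64 and 9.59 (-0.10 ± 0.14). The L-type gene Cacna1c, at 9.37 and 9.10 against 9.32 and 9.02, differed by -0.06 ± 0.20.

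The count of 7 rested on single cultures. It was 1 (Cacng1) without culture 1 with SGC0946, and 3 (Scn3a, Cacna1a, Cacnb4) without culture 2 with DMSO. Beside the channel genes, 6 of 11 vascular and fibroblast genes were lower with SGC0946, Lum by the most (-0.94 ± 0.33), with list means of 6.61 to 6.80 with DMSO and 6.02 to 6.46 with SGC0946. Of 9 oligodendrocyte lineage genes 4 were lower, Olig2 by the most (-0.82 ± 0.20), with list means of 6.60 to 6.67 and 6.18 to 6.21. Of 9 astroglia genes 1 was higher (Hopx 0.92 ± 0.37) and 2 lower (Gfap -0.56 ± 0.21, Sox9 -0.33 ± 0.15). Of 9 interneuron genes 1 was lower (Pax2 -0.70 ± 0.23), with 2 higher and 7 lower means. Of 20 muscle genes 1 was higher and 3 lower. No gene of the lists of 10 microglia and 7 Purkinje cell genes reached the unadjusted cut-off. Of 12 granule neuron genes 2 were lower and 1 higher, with list means of 8.05 to 8.08 and 7.86 to 8.12. Of 10 progenitor genes 2 were higher with SGC0946 (Mycn 0.51 ± 0.20, Ccnd2 0.35 ± 0.14) and none lower, with 7 higher means and list means of 6.58 to 6.60 and 6.67 in both treated cultures. The part of these in the channel differences was not tested.

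Of the 37 genes that work with the channels, 7 were lower with SGC0946 in CGN and none higher, with a median difference of -0.15. The largest differences were in Cabp1, a calcium sensor that modulates calcium channels (-0.97 ± 0.25), Ryr3 (-0.67 ± 0.28), Cntnap1 of axonal domains (-0.63 ± 0.23) and Rem2 (-0.55 ± 0.22).

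The fourth comparison asks the same of 4 h of SGC0946 in CGNP. None of the members passed the adjusted test, which 0.0316% of all genes (7 genes) passed, and none reached the unadjusted cut-off, which 2.25% of all genes did upward and 1.83% downward. The members' median difference was 0.01, and 18 had a higher mean, where 51.3% of all genes did, and 18 a lower one. The differences ran from -0.25 in Scn3a (± 0.18) to 0.37 in Scn3b (± 0.18). Scn3b was at 8.22, 7.78 and 8.44 with DMSO and at 8.27, 8.53 and 8.76 with SGC0946 (95% interval 0.00 to 0.75, unadjusted p = 0.0524 in limma), and reached the cut-off in the fit with culture as a replicate block. Cacng3 was at 5.46, 5.23 and 5.33 with DMSO and at 5.70, 5.72 and 5.71 with SGC0946, apart without reaching it (0.37 ± 0.25). Altogether 5 members were higher without overlap, where 5.30% of all genes were: Cacna1h, Cacna2d1, Cacng2, Cacng3 and Cacng4. None was lower without overlap, where 4.49% of all genes were. For each of the 7 genes at the cut-off in CGN the lower end of the 95% interval in CGNP lay above the difference measured in CGN, narrowly in Scn3a (-0.63 against -0.65) and Cacna1a (-0.44 against -0.46) and more widely in Cacna1e (-0.09 against -0.42) and Cacna1g (-0.40 against -0.69). This leaves out the error of the CGN value, and the 7 genes were chosen for their differences in CGN. It is therefore no test of a different response. In the test of that difference given below, Scn3a, Cacna1a, Cacnb4 and Cacng1 had unadjusted p-values of 0.179, 0.172, 0.114 and 0.0929 in limma. Cacna1b, Cacna1e and Cacna1g reached the unadjusted cut-off there.

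**Figure D5:**
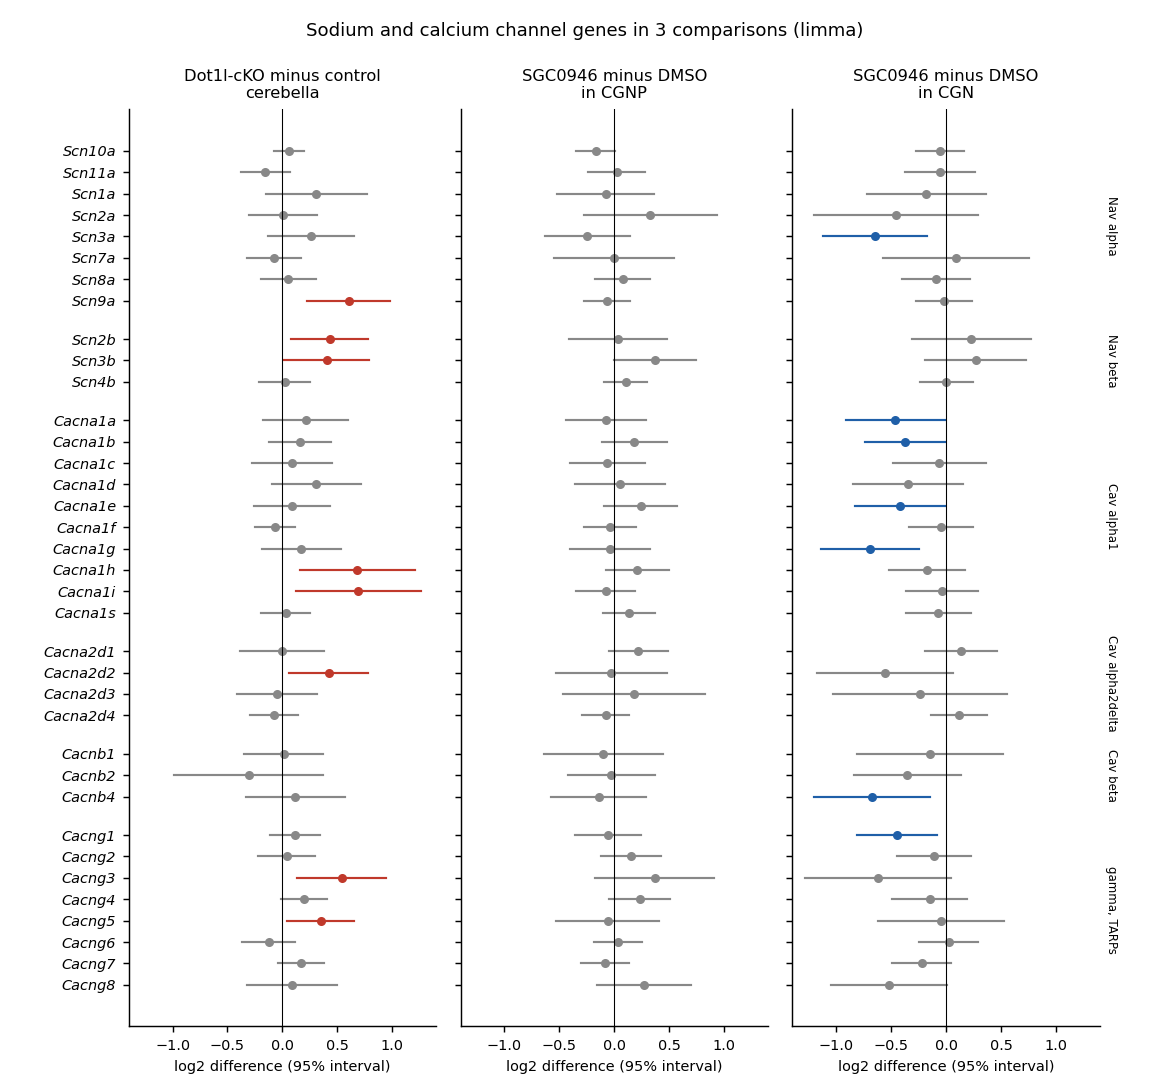
Log2 differences (points) with 95% intervals (lines) from limma for 36 channel genes, in Dot1l-cKO against control cerebella, SGC0946 against DMSO in CGNP, and SGC0946 against DMSO in CGN. Coloured intervals have an unadjusted p of at most 0.05 (red higher, blue lower), and there are 8, 0 and 7 of them.

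Whether the response to SGC0946 differed between CGN and CGNP was tested as the difference of their log2 differences. No member passed the adjusted test, and neither did any other gene (percent called 0, with 514 genes higher and 696 lower at an unadjusted p of at most 0.05). At that cut-off 5 members had the lower response in CGN, where 3.14% of all genes did, and none the higher, where 2.32% did. They were Cacng3 (-0.98 ± 0.40), Cacng8, another TARP gene (-0.79 ± 0.32), Cacna1e (-0.66 ± 0.25), Cacna1g (-0.66 ± 0.27) and Cacna1b (-0.56 ± 0.22), with adjusted p-values of 0.85 to 0.872 in limma. Cacng8 differed by 0.27 in CGNP, where the treatments overlapped, and by -0.52 in CGN, where it was at 5.79 and 5.80 with DMSO and at 5.26 and 5.30 with SGC0946. The count was 1 without CGN with SGC0946 1 (Cacna1e), 2 without CGNP with DMSO 2, 3 without CGN with DMSO 2 and 10 without CGN with SGC0946 2. Times of treatment were 44 h and 4 h, so cell type and duration cannot be told apart.

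Finally, the response in Dot1l-cKO cerebella was set against that of CGN to SGC0946, which share no arrays. Their difference was tested in 1 fit of all 6 groups, a contrast chosen after the responses had been seen. The responses also differ in tissue against culture, age, strain, and deletion against inhibitor, and days in vitro go with treatment in CGN. These cannot be told apart. Centring each array on its median was not run for this contrast. In cerebella alone it took the members' median difference from 0.10 to 0.0194. No member passed the adjusted test, which 0.185% of all genes (41 genes) passed. At the unadjusted cut-off 13 members had the higher response in cerebella, where 5.18% of all genes did, and none the lower, where 4.68% did. The median of this difference was 0.37 over the members and -0.01 over all genes. The largest was in Cacng3, 0.54 in cerebella and -0.62 in CGN, a difference of 1.16 ± 0.39 (unadjusted p = 0.00772 in limma, adjusted p = 0.275). Cacna2d2 followed with 0.42 and -0.55 (0.97 ± 0.37), and Scn3a with 0.26 and -0.65 (0.91 ± 0.31). The T-type genes Cacna1g (0.17 and -0.69), Cacna1h (0.68 and -0.17) and Cacna1i (0.69 and -0.04) also reached the cut-off, the last 2 of them at or below the dim bound in CGN. The count was 3 without CGN with SGC0946 1 (Scn9a, Cacna1h, Cacng1) and 6 without CGN with DMSO 2. All 3 genes left without CGN with SGC0946 1 lay at or below the dim bound in both CGN groups.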

How the data were processed

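The authors deposited log2 signals per transcript cluster of Affymetrix Mouse Gene 2.0 ST arrays, made in Partek with GC and sequence adjustment, background correction by RMA, then quantile normalization and summary by median polish (versions not given in the sources used here). Their tables of p-values, q-values and fold changes were not used. The platform annotation gives 1 symbol for 23521 of 34472 clusters, several for 1820 and none for 9131, and the brightest single-symbol cluster stood for each of 22180 genes. The number of arrays limits the precision. Nothing says that CGN arrays came from separate mice, and 2 mice supplied all CGNP, so their p-values may measure technical spread.

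Tests were run in limma 3.58.1 (R 4.3.3) with lmFit and eBayes, using an intensity trend. Cerebella and the 10 culture arrays were fitted apart, after a check on simulated arrays. Benjamini-Hochberg adjustment ran over all 22180 genes. The study's cut-off is an unadjusted p of at most 0.05. CGNP cultures pair by mouse in the labels, while the correlations of the same-culture deviations over all genes were 0.01, 0.04 and 0.01. Single members varied in this: Cacna1a kept the order of its cultures between the treatments, and Cacng5 reversed it. Members given array by array were those with the largest changes at the unadjusted cut-off, up to 6 per comparison and direction, or up to 8 among 2-fold differences, and further members given in full were chosen after their values were seen. The members and gene lists were chosen with earlier results of these data known. Alternatives covered centring, further quantile normalization, all clusters of a gene, dim genes, variance models, the replicate block and leaving out arrays; sex as a term and the contrast of cerebella with CGN were added after seeing the data. Promoter windows came from RefSeq (GRCm38.p6), which had one for 28 members.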

Additional observations from a re-analysis of the deposited data

How the results depend on the processing

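No member passed the adjusted test in cerebella or CGNP under any alternative. With 1 array left out in turn, in cerebella the members higher at the unadjusted cut-off ranged from 4 to 8 and those lower from 0 to 2 (Scn11a and Cacnb2 without Dot1l-cKO 3), with a median of 0.08 to 0.17. In CGNP they ranged from 0 to 1 and from 0 to 1, median 0.01 to 0.07. In CGN those lower ranged from 1 to 9, those higher from 0 to 1 and those past the adjusted test from 0 to 1 (Cacna1g without culture 2 with SGC0946), median -0.28 to -0.12. For CGN against CGNP, members higher ranged from 5 to 9, lower 1 to 1, median 0.09 to 0.19. The lower responses in CGN than CGNP ranged from 1 to 10 (median -0.35 to -0.15), the higher responses of cerebella than CGN from 3 to 15, the lower from 0 to 1 and those past the adjusted test from 0 to 1 (Cacng3), median 0.23 to 0.50.

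Centring each array on its median gave 4 higher and 1 lower in cerebella, with a median of 0.0194. Ordinary variance gave 2 higher (Scn9a, Scn2b) in cerebella and 4 lower in CGN (Scn3a, Cacna1g, Cacnb4, Cacng1). Sex as a term, by the level of Xist, gave 5 higher in cerebella (Scn9a, Scn2b, Cacna1h, Cacna2d2, Cacng3). In CGNP a further quantile normalization gave 1 higher (Scn3b), the replicate block 1 higher (Scn3b), leaving out the cultures of pooled mice 1 higher (Scn3b) and 1 lower (Scn10a), and the CGNP arrays fitted alone 2 higher (Cacna2d1, Cacng3). The replicate block left the difference between the responses of CGN and CGNP at 5 lower. Without dim genes the medians were 0.16 over 19 members in CGNP, -0.29 over 24 in CGN and 0.56 over 24 for CGN against CGNP. For CGN against CGNP, joint quantile normalization gave 13 higher, 0 lower and a median of 0.38, and a fold of at least 1.5 gave 2 lower (Cacng2, Cacng7). The cause of these shifts was not tested.

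The log2 differences of the genes given in full by the naming rule kept their sign under every alternative run. These genes were chosen for large changes in the same data, so a kept sign is little support. In cerebella with 1 mouse left out, 25 of 36 values of the 6 genes stayed at the unadjusted cut-off and 11 did not. With 2 or 3 arrays a group, most intervals span about 1 log2 unit or less, which limits what can be told for small differences.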

Other observations

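The 2 CGN arrays whose titles and descriptions name opposite treatments were at 3 and 6 days in vitro by their labels, the second from P8. Cacna1g was at 5.43 in the first and 5.45 in the second, Cacnb4 at 7.20 and 6.85, Scn3a at 5.64 and 4.72, Cacna1a at 8.66 and 8.14, Cacna1e at 9.41 and 8.98, and Cacng1 at 4.22 and 4.22 (log2 signals). Cacna2d2 was at 5.82 and 5.95, and Cacng3 at 6.02 and 5.57.

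The Dot1l cluster, which encodes the target of the inhibitor, was at 8.72 and 8.54 in CGN with DMSO and at 8.25 and 8.06 with SGC0946 (-0.47 ± 0.15, unadjusted p = 0.00746 and adjusted p = 0.394 in limma), and at 7.99 and 8.06 in the 2 arrays without a group. In CGNP it was at 9.51, 9.17 and 9.40 with DMSO and at 9.29, 9.36 and 9.35 with SGC0946 (-0.03 ± 0.12).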
